A study of Mus musculus with 18 samples.

Results

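Genes of lysosomal enzymes, their cofactors, lysosomal membrane proteins and the proton pump were examined in B16F10 mouse melanoma in which Hgs, which encodes the endosomal protein Hrs, had been knocked down. The set holds 43 genes chosen by symbol, and all 43 were found among the 23453 symbols of the count table. By role they are 8 membrane proteins, 8 proteases, 14 glycosidases and sulfatases, 7 lipid enzymes and cofactors, 5 parts of the V-ATPase pump or its accessory protein, and the transcription factor Tfeb, which is no lysosomal protein itself. RNA was sequenced from 18 libraries. The shHrs tumours (n = 5) and shCTL tumours (n = 5) grew in wild-type female C57BL/6 mice of 6 to 8 weeks, and the labels call them xenografts. Cultures in DMEM formed batch 1 and batch 2, each with 2 shHrs and 2 shCTL libraries. All cells, controls included, carried a pLKO.1 lentiviral construct, with a shRNA to Hgs in the shHrs cells and a scrambled one in the shCTL cells, and had been selected for 5 days with puromycin or blasticidin. How many shRNAs were used is not stated, and tumour libraries hold RNA of the mouse's own cells beside that of the melanoma cells. In such bulk RNA, fewer cells of a type and less RNA per cell cannot be told apart.

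Lysosomes are acid compartments in which hydrolases break down proteins, glycans and lipids that arrive from endosomes, autophagosomes and phagosomes. Hrs is part of the ESCRT-0 complex, which gathers ubiquitinated membrane proteins on endosomes so that they pass into vesicles bound for the lysosome. The V-ATPase acidifies the lumen, and factors of the MiT/TFE family (Tfeb, Tfe3, Mitf) bind E-box motifs near the start of many lysosomal genes. In pigment cells the melanosome is a relative of the lysosome and shares part of its machinery, and macrophages are rich in lysosomal proteins too.

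The E-box core recognised by this family, CACGTG, and its extended form TCACGTGA were looked for in windows from 250 bases before to 50 bases after each start site, as tabulated by RefSeq for build GRCm38.p6. Windows were found for 38 of the 43 genes, and Asah1, Ctsb, Ctsh, Npc1 and Atp6v1h had none. TCACGTGA, a palindrome that contains CACGTG, stood in windows of 7 of the 38 genes (18.4%), namely Ctsa, Ctsd, Gla, Mcoln1, Cln3, Atp6v0d1 and Atp6v1a, while 1.12% of the 27025 genes in the table held it. CACGTG stood in 15 of the 38 (39.5%), against 8.09% of all genes. The M-box form TCATGTG, searched on both strands, stood in 6 of the 38 (15.8%), against 4.31% of all genes. A match of letters is a description, not a binding site. The stretches before the start site are shown for 4 genes with matches and 2 without, which were picked after their values in tumours were seen. Capitals mark CACGTG, TCACGTGA or TCATGTG, and all are written 5′ to 3′ on the gene's own strand. The Mcoln1 stretch, at chr8:3500269-3500518 (plus strand), has TCACGTGA 46 bases before the start and another CACGTG at 71.
Mcoln1: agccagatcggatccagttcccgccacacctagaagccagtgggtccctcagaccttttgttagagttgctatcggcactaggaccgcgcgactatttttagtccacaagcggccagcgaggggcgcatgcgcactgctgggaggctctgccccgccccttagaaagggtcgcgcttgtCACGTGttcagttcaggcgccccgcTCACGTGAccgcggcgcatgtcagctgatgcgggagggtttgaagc
The Ctsd stretch, at chr7:142387828-142388077 (minus strand), has TCACGTGA at 99 bases before the start and CACGTG at 245.
Ctsd: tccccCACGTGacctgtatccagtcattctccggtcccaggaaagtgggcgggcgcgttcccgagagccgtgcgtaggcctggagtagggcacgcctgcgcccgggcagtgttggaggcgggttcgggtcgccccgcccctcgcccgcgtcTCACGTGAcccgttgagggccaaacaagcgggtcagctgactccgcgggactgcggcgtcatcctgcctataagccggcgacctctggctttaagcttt
The Gla stretch, at chrX:134601006-134601255 (minus strand), holds TCACGTGA at 228 and 195 bases before the start, with TCATGTG between them at 211.
Gla: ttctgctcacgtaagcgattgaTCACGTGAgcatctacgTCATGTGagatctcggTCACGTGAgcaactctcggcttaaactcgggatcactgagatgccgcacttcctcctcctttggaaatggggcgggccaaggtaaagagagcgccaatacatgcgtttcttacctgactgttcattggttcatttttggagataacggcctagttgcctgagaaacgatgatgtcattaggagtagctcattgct
The Lamp1 stretch, at chr8:13158911-13159160 (plus strand), holds CACGTG at 61, 45, 28 and 15 bases before the start and no TCACGTGA.
Lamp1: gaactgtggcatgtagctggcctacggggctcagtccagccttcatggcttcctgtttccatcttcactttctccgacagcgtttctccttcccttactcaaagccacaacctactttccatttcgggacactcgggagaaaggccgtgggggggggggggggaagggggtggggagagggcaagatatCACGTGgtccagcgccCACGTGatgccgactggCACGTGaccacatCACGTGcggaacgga
Gpnmb, at chr6:49036268-49036517 (plus strand), and Neu1, at chr17:34931003-34931252 (plus strand), hold none of the motifs in the window.
Gpnmb: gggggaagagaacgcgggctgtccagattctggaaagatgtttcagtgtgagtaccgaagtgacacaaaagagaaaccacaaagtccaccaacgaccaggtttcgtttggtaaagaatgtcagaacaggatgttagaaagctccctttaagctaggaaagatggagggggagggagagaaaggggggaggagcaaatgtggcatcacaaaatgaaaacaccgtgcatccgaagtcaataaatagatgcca
Neu1: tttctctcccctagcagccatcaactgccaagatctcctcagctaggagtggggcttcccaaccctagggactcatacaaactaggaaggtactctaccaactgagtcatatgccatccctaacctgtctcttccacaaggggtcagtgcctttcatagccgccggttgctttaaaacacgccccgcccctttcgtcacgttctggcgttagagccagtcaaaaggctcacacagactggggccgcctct

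Library totals ran from 17.6 M to 27.7 M counts (mega), and the lowest value of any of the 43 genes in any library rested on 36 counts (Ctsf). Levels below are CPM, library counts scaled to a common total, after TMM scaling over all 18 libraries. Hgs stood at 23.8, 17.1, 21.3, 29.1 and 16.1 CPM in shHrs tumours, against 107, 97.6, 112, 109 and 95.8 CPM in shCTL tumours. Batch 2 had 44.5 and 41.3 CPM in shHrs cultures and 97.8 and 107 CPM in shCTL cultures, and batch 1 had 35.2 and 30.4 CPM in shHrs cultures and 95.0 and 113 CPM in shCTL cultures. Its log2 fold change was -2.28 (SE 0.15, adjusted p = 0.000106) in tumours by edgeR's quasi-likelihood test, -1.30 (SE 0.22, adjusted p = 0.0268) in batch 2 and -1.67 (SE 0.23, adjusted p = 0.103) in batch 1. The call in batch 2 ended without any 1 of its own libraries (adjusted p = 0.117, 0.308, 0.177 and 0.194 without shHrs replicate 1 or 2 or shCTL replicate 1 or 2). Whether the paired cultures within a batch were separate is not stated, so the culture p-values reflect only how much those libraries varied. Libraries stood apart within groups. Tumour shHrs replicate 4 lay far from the other 9 tumours on the first principal component (56.1, against -31.9 to 17.3), and among cultures batch 1 shHrs replicate 2 lay apart on the second component (-54.4, against -24 to 23.9), while batch 1 shHrs replicate 1 lay among the controls. Melanocyte markers were high in all libraries (sums of 4364 to 27480 CPM over 8 genes).

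In tumours, 37 of the 43 lysosomal genes had a higher fitted level with shHrs than with shCTL, and 1, Asah1, passed the threshold of an adjusted p under 0.05. The median log2 fold change of the 43 was 0.18, against 0.01 over all 13215 genes tested, of which 51.5% were positive. Across all genes 0.545% passed the threshold in either direction, 31 higher and 41 lower. At an unadjusted p under 0.05, 14 of the 43 were higher in shHrs tumours, where 6.96% of all genes were, and Ctsf alone was lower, a count that was 0 in 7 of 10 omissions of 1 tumour. For 7 genes, Asah1, Atp6ap1, Ctsd, Lamp1, Mcoln1, Neu1 and Ppt1, every shHrs tumour stood above every shCTL tumour, as did 2.00% of all genes. DESeq2 called 9 of the 43, all higher: Asah1, Atp6ap1, Ctsd, Ctsl, Gpnmb, Lamp1, Mcoln1, Neu1 and Ppt1, where it called 3.94% of all genes in either direction. The fold changes were modest, the largest being 1.54-fold for Gpnmb.

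**Figure D1:**
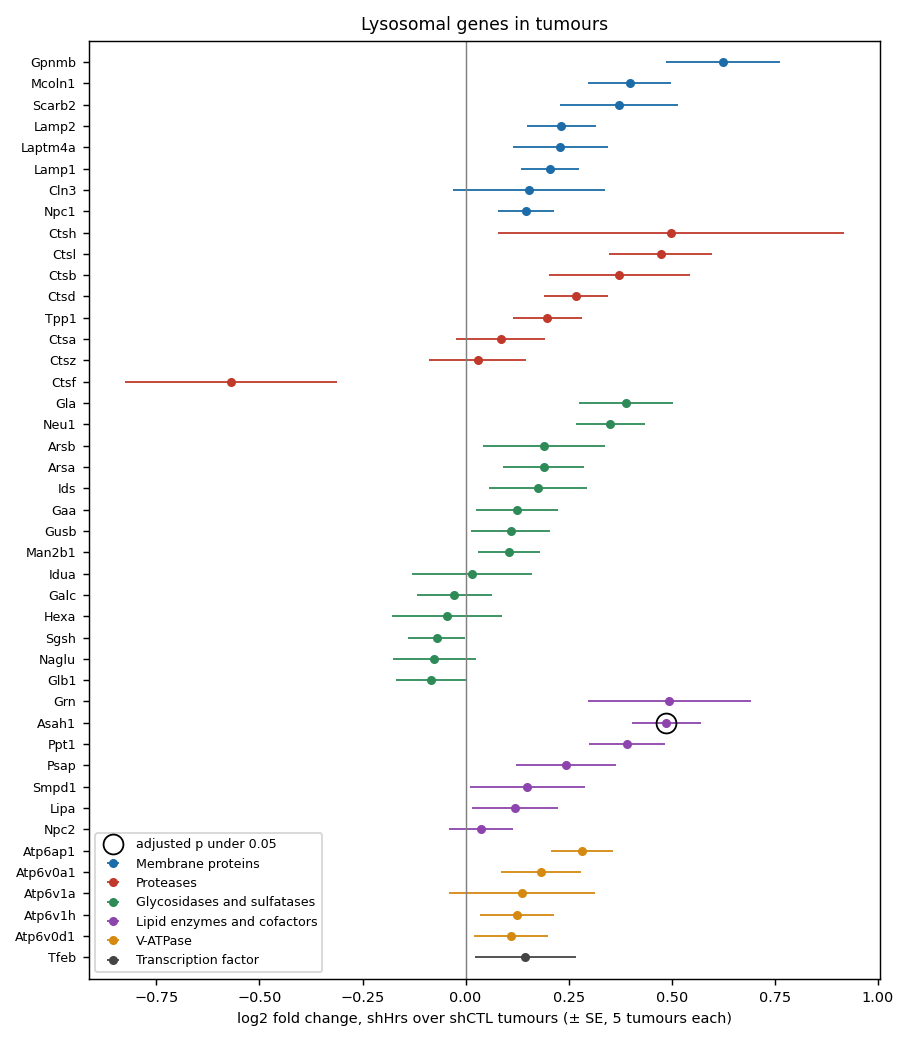
Log2 fold change of each of the 43 genes between 5 shHrs and 5 shCTL tumours (points, with bars of 1 SE from edgeR), grouped and coloured by role. Points right of 0 are higher in shHrs tumours: 37 of the 43 lie there, and the ring marks Asah1, which passed the threshold.

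Asah1 encodes acid ceramidase, which splits ceramide into sphingosine and fatty acid, and lies on the minus strand of chromosome 8 at 41340197 to 41374773 of GRCm38. It read 166, 164, 172, 149.9 and 199 CPM in shHrs tumours, against 121, 126, 108, 135 and 116 CPM in shCTL tumours. The lowest shHrs tumour was thus above the highest shCTL tumour, and the means were 170.3 ± 18 and 121 ± 10.0 CPM (SD, n = 5 each). The log2 fold change was 0.49 (SE 0.084, adjusted p = 0.0259) by edgeR, or 1.40-fold. The size of this difference varied little when a tumour was left out (0.42 to 0.54), but the call ended in 7 of 10 such omissions. These were shCTL replicate 1, 2, 3 or 5 and shHrs replicate 1, 2 or 3, with adjusted p of 0.0606 to 0.104 by edgeR. Over all alternatives it ran from 1.24e-05 to 0.193.

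Of the other lipid enzymes and cofactors, all 6 had positive values, from 0.04 for Npc2 to 0.49 for Grn. Psap, the precursor of the saposins that present sphingolipids to their hydrolases, took the most reads of this role and stood at 1240, 1167, 979, 1466 and 1177 CPM in shHrs tumours, against 1074, 1103, 823, 990.2 and 1094 CPM in shCTL tumours. The groups overlapped, with a log2 fold change of 0.24 (SE 0.12, adjusted p = 0.412). Ppt1, a thioesterase that removes palmitate from proteins, read 67.4, 64.0, 50.3, 59.8 and 66.1 CPM in shHrs tumours, against 45.9, 50.3, 41.1, 48.3 and 48.3 CPM in shCTL tumours. Its lowest shHrs tumour, replicate 3, exceeded the highest shCTL tumour only slightly, and the log2 fold change of 0.39 (SE 0.093, adjusted p = 0.097) did not pass. Grn, the precursor of the granulins, stood at 424, 415, 324, 600.2 and 302 CPM in shHrs tumours, against 283, 349.6, 202, 316 and 314 CPM in shCTL tumours, with replicate 4 highest, and gave 0.49 (SE 0.20, adjusted p = 0.287). Smpd1 (acid sphingomyelinase), Lipa (acid lipase, which splits cholesteryl esters) and Npc2 (which hands cholesterol to Npc1) had log2 fold changes of 0.15 (SE 0.14), 0.12 (SE 0.10) and 0.04 (SE 0.078).

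All 8 membrane proteins had positive values in tumours, with a median of 0.23. Gpnmb, a glycoprotein of melanosomes and lysosomes, read 7179, 6474, 6135, 4855 and 7478 CPM in shHrs tumours, against 4966, 4328, 3304, 4463 and 3689 CPM in shCTL tumours. Of the shHrs tumours, 4 were above the highest shCTL tumour and replicate 4 fell just below it, and the log2 fold change was 0.62 (SE 0.14, adjusted p = 0.0742). Mcoln1, the lysosomal calcium channel mucolipin-1, read 33.9, 37.1, 32.3, 43.9 and 35.4 CPM in shHrs tumours, against 27.2, 29.8, 27.0, 24.7 and 29.5 CPM in shCTL tumours. These groups did not overlap, at 0.40 (SE 0.10, adjusted p = 0.111). Lamp1, the main glycoprotein of the lysosomal membrane, read 754, 826, 716, 746 and 827 CPM in shHrs tumours, against 679, 632, 669, 700.2 and 665 CPM in shCTL tumours, again without overlap, and had one of the smallest spreads among shCTL tumours (a coefficient of variation of 3.68%). Its log2 fold change was 0.20 (SE 0.070, adjusted p = 0.208). Lamp2, which serves chaperone-mediated autophagy and the fusion of autophagosomes, gave 0.23 (SE 0.083, adjusted p = 0.232), and Scarb2, a receptor that carries an enzyme to lysosomes, gave 0.37 (SE 0.14, adjusted p = 0.265). For both, 4 of 5 shHrs tumours were above every shCTL tumour. Laptm4a (0.23), Cln3 (0.15) and the cholesterol exporter Npc1 (0.15) overlapped between the groups.

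Among the 8 proteases, 7 had positive values. Ctsd, the main lysosomal aspartic protease, read 1363, 1441, 1189, 1367 and 1347 CPM in shHrs tumours, against 1160, 1132, 1019, 1116 and 1128 CPM in shCTL tumours. All shHrs tumours were above all shCTL tumours, with a log2 fold change of 0.27 (SE 0.078, adjusted p = 0.149). Of its exon bases, 34.4% are also annotated to the predicted gene Gm49369 on the same strand, so its counts could have been split. Ctsl, a cysteine protease, read 194, 187, 201, 182 and 144 CPM in shHrs tumours, against 127, 125, 103, 133 and 164 CPM in shCTL tumours. Here shHrs replicate 5 lay within the shCTL range, and the log2 fold change was 0.47 (SE 0.12, adjusted p = 0.117). Tpp1, a tripeptidyl peptidase, gave 0.20 (SE 0.083, adjusted p = 0.311), with 4 of 5 shHrs tumours above every shCTL tumour. Ctsb and Ctsh, cysteine proteases that macrophages also make in quantity, had wide spreads: Ctsb gave 0.37 (SE 0.17, adjusted p = 0.356) and Ctsh 0.50 (SE 0.42, adjusted p = 0.659). Ctsa, which protects Neu1 and beta-galactosidase in a complex, and Ctsz stood near 0, at 0.09 and 0.03. Ctsf was the exception, at 2.31, 1.87, 2.44, 2.22 and 2.36 CPM in shHrs tumours and 2.75, 3.02, 2.81, 2.42 and 5.59 CPM in shCTL tumours. It was the lowest gene of the set per kilobase of exon in tumours, and its value of -0.57 (SE 0.26, adjusted p = 0.343) did not pass and was -0.30 without shCTL replicate 5.

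The 14 glycosidases and sulfatases were the most mixed role, with 9 positive and 5 negative values and a median of 0.11. Gaa, the acid alpha-glucosidase that degrades glycogen, took the most reads of them over all 18 libraries and stood at 425, 451, 352, 348 and 385 CPM in shHrs tumours, against 419, 369, 350.1, 336 and 318 CPM in shCTL tumours. The groups overlapped (0.12 (SE 0.10, adjusted p = 0.636)). Neu1, the sialidase, read 119, 124, 111, 116 and 121 CPM in shHrs tumours, against 110.4, 83.0, 93.8, 83.3 and 91.2 CPM in shCTL tumours. All shHrs tumours were above all shCTL tumours, although the lowest of them, replicate 3 at 111 CPM, was close to shCTL replicate 1 at 110.4 CPM, and the log2 fold change was 0.35 (SE 0.083, adjusted p = 0.0943). Gla, alpha-galactosidase A, gave 0.39 (SE 0.11, adjusted p = 0.15), with 4 of 5 shHrs tumours above every shCTL tumour. A further 5 enzymes had negative values with adjusted p of 0.708 to 0.929 by edgeR: Galc (-0.03), Hexa (-0.04), Sgsh (-0.07), Naglu (-0.08) and Glb1 (-0.08). The remaining members, Arsa, Arsb, Ids, Gusb, Man2b1 and Idua, lay between 0.02 for Idua and 0.19 for Arsa.

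The 5 V-ATPase genes were all positive, from 0.11 for Atp6v0d1 to 0.28 for Atp6ap1. Atp6ap1, an accessory subunit needed to assemble the pump, read 239.6, 251, 225, 263 and 232 CPM in shHrs tumours, against 218, 185, 184, 201 and 205 CPM in shCTL tumours. The groups did not overlap, with a log2 fold change of 0.28 (SE 0.075, adjusted p = 0.122). Atp6v1a, a catalytic subunit and the gene with the most reads of the role over all 18 libraries, though not in tumours, stood at 275, 274, 293, 152 and 363 CPM in shHrs tumours, against 286, 234, 234, 255 and 219 CPM in shCTL tumours. It showed the widest range of the pump genes in shHrs tumours, with replicate 4 lowest and replicate 5 highest, and gave 0.14 (SE 0.18, adjusted p = 0.788). Tfeb, the transcription factor, read 42.9, 51.0, 38.7, 54.8 and 41.8 CPM in shHrs tumours, against 46.5, 48.1, 37.5, 36.7 and 37.7 CPM in shCTL tumours. The groups overlapped, at 0.14 (SE 0.12, adjusted p = 0.661). Its relatives Mitf (-0.28 (SE 0.18, adjusted p = 0.548)) and Tfe3 (0.06 (SE 0.092, adjusted p = 0.822)) did not pass either.

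**Figure D2:**
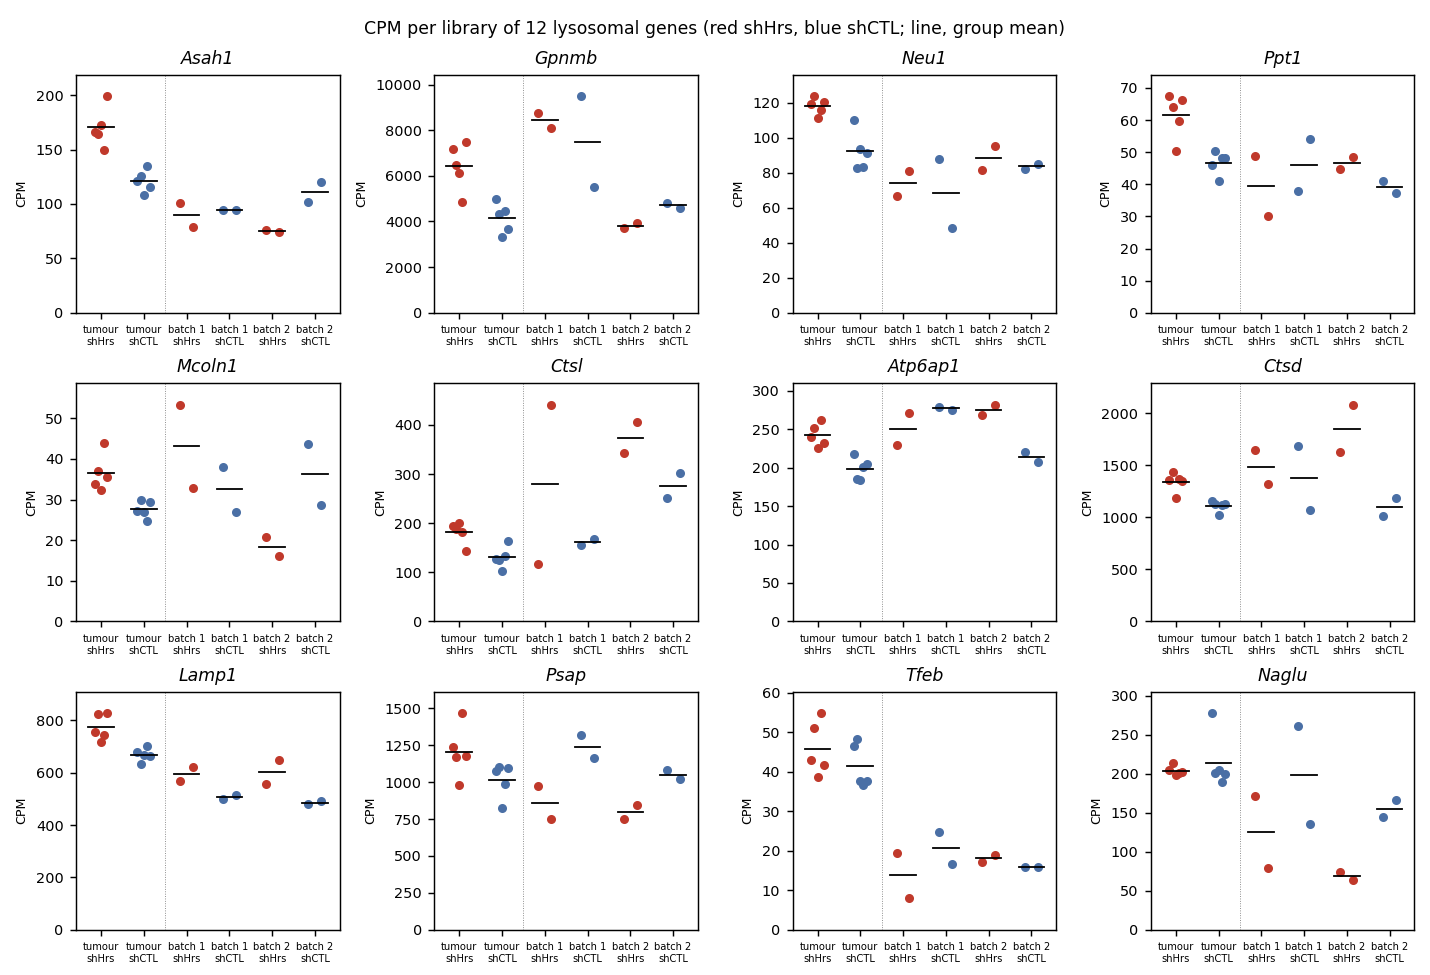
Level in CPM of 12 of the genes in every library (points; red shHrs, blue shCTL), with the group mean as a line and the tumours to the left of the dotted line. The shHrs tumours lie wholly above the shCTL tumours for Asah1, Neu1, Ppt1, Mcoln1, Atp6ap1, Ctsd and Lamp1. In cultures the order of the groups differs from gene to gene and between the batches.

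Macrophage markers varied between tumours at the same time. The sum of 19 markers was 506, 479, 326, 1527 and 298 CPM in shHrs tumours, against 151, 625, 53.4, 424 and 825 CPM in shCTL tumours, and 3.63 to 36.1 CPM in cultures. Of the 19, 18 had positive log2 fold changes with a median of 0.61, none passed by edgeR, and none of the 19 was at 0 in all tumours of a group, whereas 9 to 13 of them were at 0 in both libraries of each culture group. Ctsh followed these sums closely, at 24.8, 23.8, 19.2, 51.2 and 18.6 CPM in shHrs tumours, against 10.4, 25.0, 7.03, 19.8 and 35.2 CPM in shCTL tumours, and Ctsb (973, 904, 789.5, 1271 and 759 CPM in shHrs tumours, against 729, 816, 514, 693 and 868 CPM in shCTL tumours) and Grn were likewise highest in shHrs replicate 4 and lowest in shCTL replicate 3. Psap, Laptm4a, Gla, Atp6ap1 and Atp6v0a1 also had their highest value in shHrs replicate 4 and their lowest in shCTL replicate 3. Asah1 and Gpnmb were lowest among the shHrs tumours in replicate 4, the tumour with the most macrophage marker RNA. Both were also lowest of all tumours in shCTL replicate 3 (108 and 3304 CPM), the tumour with the least. Without shHrs replicate 4 and shCTL replicate 3, a choice made after seeing the data, Asah1 gave 0.48 (adjusted p = 0.0344 by edgeR) and Gpnmb 0.63 (adjusted p = 0.0353), and both passed. The same omission left Ctsb at 0.13, Grn at 0.20, Psap at 0.09, Tfeb at 0.03 and Ctsh at -0.08, and 31 of the 43 genes were positive both with and without these tumours. In this fit 0.567% of all genes passed. The part of macrophage RNA in the differences of Asah1, Gpnmb and the other genes was not tested. Muscle markers had sums of 24.1 to 760.3 CPM in shHrs tumours and 5.27 to 182 CPM in shCTL tumours (7 of 7 positive, none passed by edgeR), and their part was not tested. Erythroid markers had sums of 1.78 to 8.07 CPM in shHrs tumours and 3.45 to 94.1 CPM in shCTL tumours over 3 genes, of which 1 was at 0 in all tumours and 2 were tested, both negative (median -3.56, lowest adjusted p = 0.0653 by edgeR). Lymphocyte markers had sums of 3.39 to 37.7 CPM in shHrs tumours and 1.46 to 11.3 CPM in shCTL tumours over 14 genes, of which 6 were tested, all 6 positive (median 0.89), and none passed by edgeR. The part of either list was not tested.

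**Figure D3:**
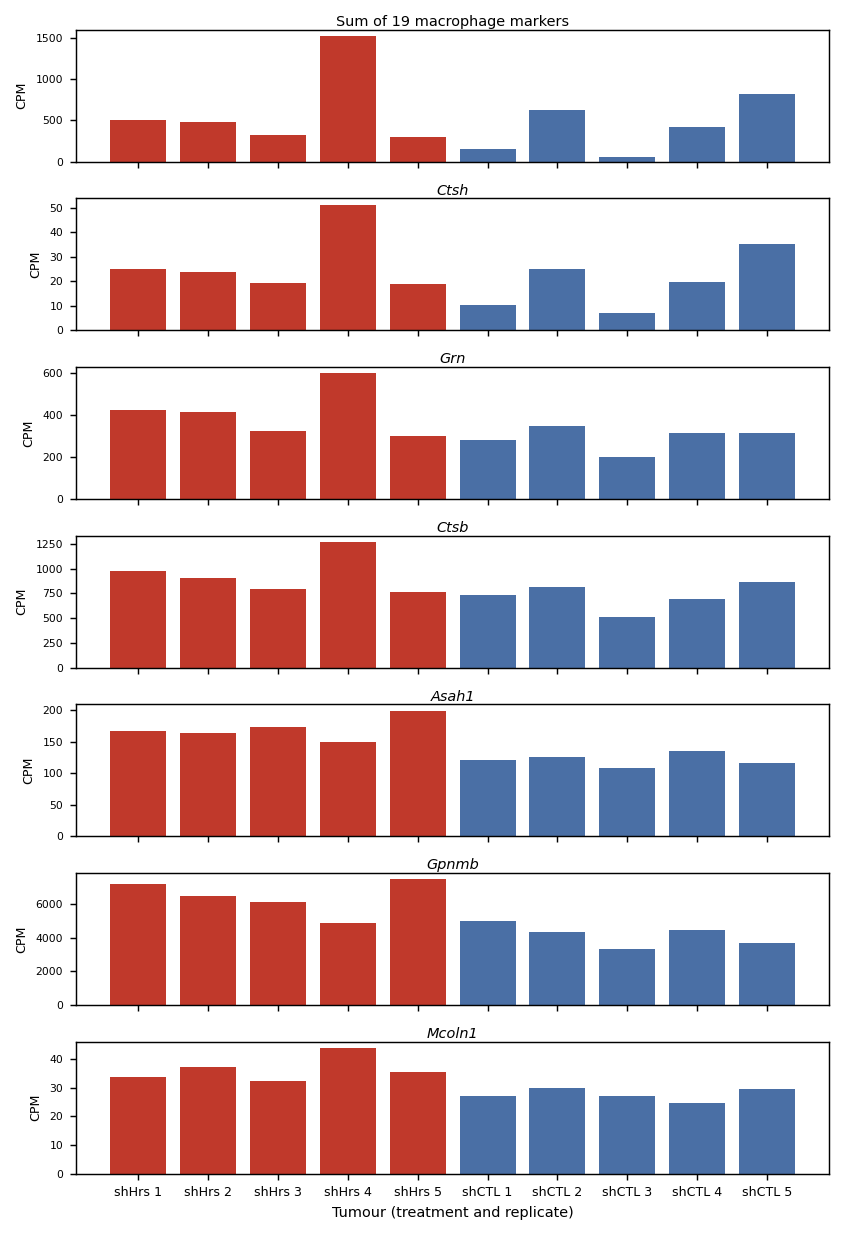
Summed CPM of 19 macrophage markers (top) and CPM of 6 lysosomal genes in each tumour (bars; red shHrs 1 to 5, blue shCTL 1 to 5). Ctsh, Grn and Ctsb peak in shHrs replicate 4 and are lowest in shCTL replicate 3, as the marker sum does. Asah1 and Gpnmb are lowest among shHrs tumours in replicate 4, and lowest of all tumours in shCTL replicate 3.

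In batch 2 cultures none of the 43 genes passed by edgeR, where 4.03% of all 12897 genes did. At an unadjusted p under 0.05, 3 were higher and 5 lower (27.9% of all genes in either direction), DESeq2 called 1, Naglu, lower (15.4% of all genes), and limma voom called none. Of the 43, 19 were positive and the median was -0.09, where 47.3% of all genes were positive with a median of -0.05. Mcoln1 read 20.7 and 16.1 CPM in shHrs cultures and 43.7 and 28.7 CPM in shCTL cultures, a log2 fold change of -1.03 (SE 0.35, adjusted p = 0.108), opposite in sign to tumours. Naglu, which removes N-acetylglucosamine from heparan sulfate, read 73.9 and 63.4 CPM in shHrs cultures and 144 and 166 CPM in shCTL cultures and gave -1.22 (SE 0.42, adjusted p = 0.11). Asah1 read 76.3 and 74.1 CPM in shHrs cultures and 101 and 120.2 CPM in shCTL cultures, so that here both shHrs cultures lay below both controls (-0.61 (SE 0.23, adjusted p = 0.131)). With 2 libraries a group such an order was common. Of all 12897 genes 4515 lay wholly above and 4470 wholly below the controls, and of the 43, 14 and 17 did. Gla (0.77 (SE 0.30, adjusted p = 0.14)), Ctsd (0.71 (SE 0.29, adjusted p = 0.155)) and Cln3 (0.74 (SE 0.31, adjusted p = 0.164)) stood on the positive side. The result depended on what the batch was fitted with. A fit of batch 2 alone called 10 of the 43 (Atp6v1h, Cln3, Ctsd, Gla and Smpd1 higher and Glb1, Man2b1, Mcoln1, Naglu and Npc1 lower), where it called 34.1% of all genes. Leaving out batch 1 shHrs replicate 1 or batch 1 shHrs replicate 2 called Mcoln1 and Naglu, both lower, beside 20.4% and 20.7% of all genes.

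In batch 1 cultures none of the 43 passed by edgeR, as none of all genes did (0%). By unadjusted p under 0.05, 1 was higher and 1 lower (9.38% of all genes), DESeq2 called 1, Ctsb, lower (1.70% of all genes), and limma voom called none. As in batch 2, 19 were positive, and the median was -0.09, where 50.6% of all genes were positive with a median of 0.01. Ctsb read 492 and 478 CPM in shHrs cultures and 862 and 1023 CPM in shCTL cultures, or -0.97 (SE 0.21, adjusted p = 0.253). Cln3, mutated in juvenile Batten disease, read 8.24 and 7.99 CPM in shHrs cultures and 4.39 and 3.92 CPM in shCTL cultures, or 0.96 (SE 0.31, adjusted p = 0.451). Psap (-0.53 (SE 0.23, adjusted p = 0.537)), Scarb2 (-0.47 (SE 0.21, adjusted p = 0.544)) and Ctsh (-0.85 (SE 0.44, adjusted p = 0.589)) were on the negative side and Tpp1 (0.53 (SE 0.25, adjusted p = 0.553)) on the positive side. Ctsh was at -0.30 without shHrs replicate 1 of this batch and at -1.77 without its shHrs replicate 2. The 2 shHrs cultures of this batch differed widely for several genes: Ctsl stood at 117 and 441 CPM, Gusb, the beta-glucuronidase, at 227 and 42.1 CPM and Lipa at 151 and 54.3 CPM in replicates 1 and 2. Without shHrs replicate 1, the library that lay among the controls, 8 members passed in batch 1 (Atp6v1h and Ctsl higher and Arsb, Gusb, Lipa, Man2b1, Naglu and Tfeb lower), beside 11.3% of all genes. That fit leaves shHrs with 1 library in the batch, which is then assumed to vary like the other groups.

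Fitted over both batches with batch as a term, none of the 43 passed by edgeR and none of all 12617 genes did (0%). Unadjusted, 2 were higher and 5 lower (13.3% of all genes), DESeq2 called Cln3 higher (2.39% of all genes), and limma voom called none. Cln3 was the member with the smallest p, at 0.85 (SE 0.23, adjusted p = 0.301), and read 8.95 and 8.45 CPM in shHrs cultures and 5.38 and 4.71 CPM in shCTL cultures in batch 2. Next came Naglu (-0.94 (SE 0.31, adjusted p = 0.332)), Psap (-0.49 (SE 0.16, adjusted p = 0.332)), the pump subunit Atp6v1h (0.69 (SE 0.26, adjusted p = 0.339)), the iduronate sulfatase Ids (-0.55 (SE 0.21, adjusted p = 0.339)) and Npc1 (-0.55 (SE 0.21, adjusted p = 0.344)). In both batches, shHrs cultures were wholly above the controls for Cln3 and Lamp1 and wholly below them for Arsb, Galc, Ids, Npc1 and Psap. That is 7 of the 43, and 10.3% of all genes kept such an order in 1 direction. Lamp1 read 558 and 648 CPM in shHrs cultures and 481 and 490.4 CPM in shCTL cultures in batch 2 and 568 and 621 CPM in shHrs cultures and 500.4 and 516 CPM in shCTL cultures in batch 1, a fitted ratio of 1.18 over both batches (adjusted p = 0.472), beside 1.15 in tumours.

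The effects of the 2 batches differed beyond the threshold for none of the 43 genes by edgeR, where 0.155% of all genes differed. At an unadjusted p under 0.05 there were 2 (20.3% of all genes), Ctsb and Mcoln1, while DESeq2 called Ctsb (7.55% of all genes) and limma voom none. Batch 2 minus batch 1 was 1.16 (SE 0.30, adjusted p = 0.112) for Ctsb and -1.43 (SE 0.49, adjusted p = 0.168) for Mcoln1. It was 1.36 (SE 0.62, adjusted p = 0.263) for Ctsh, -0.67 (SE 0.36, adjusted p = 0.331) for Idua, -0.55 (SE 0.33, adjusted p = 0.374) for Grn and -0.53 (SE 0.32, adjusted p = 0.387) for Asah1. Signs were opposite in the 2 batches for 20 of the 43 genes, and the share of all genes was not computed. Without batch 1 shHrs replicate 1, 6 members differed (Arsb, Ctsb, Gusb, Lipa, Smpd1 and Tfeb), beside 14.8% of all genes, and without batch 1 shHrs replicate 2, 2 did (Ctsh and Mcoln1), beside 4.81%. The Ctsh difference was 0.84 without shHrs replicate 1 and 2.28 without shHrs replicate 2 of batch 1.

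**Figure D4:**
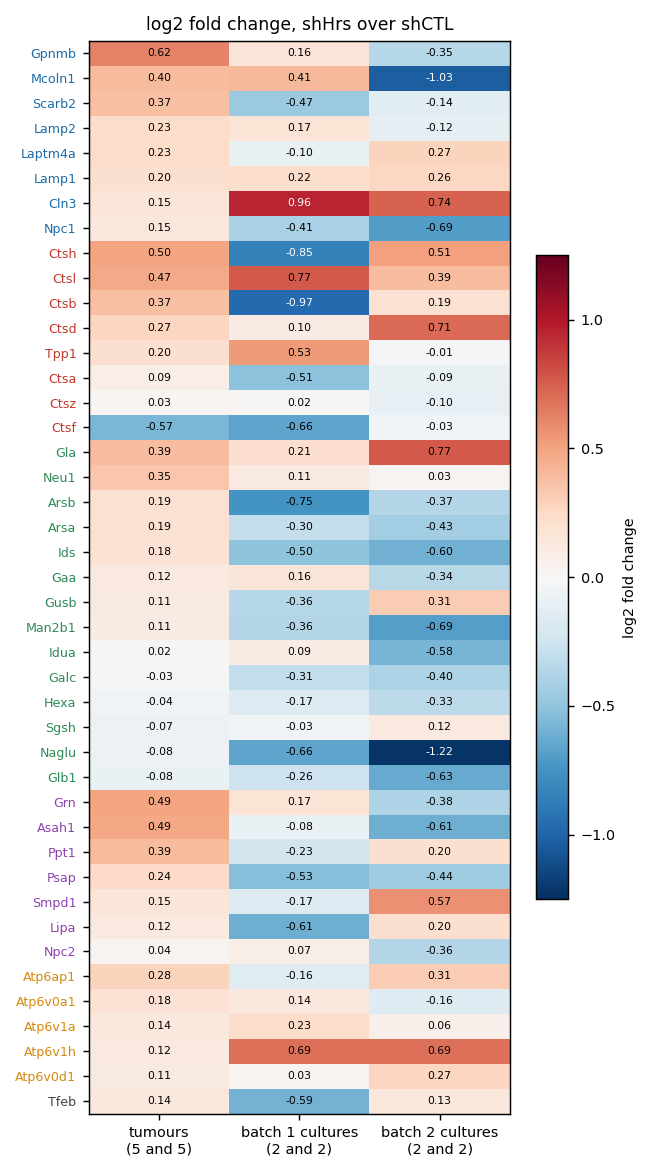
Log2 fold change of shHrs over shCTL for the 43 genes in tumours, batch 1 cultures and batch 2 cultures (colour and printed value; red higher in shHrs, blue lower), with gene names coloured by role as in the plot of tumour fold changes. The tumour column is pale red for 37 genes, while each culture column has 19 positive values and opposite signs between the batches for 20 genes.

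The effect of shHrs in tumours was set against its mean effect in the cultures in a fit of all 18 libraries. The difference was positive for 31 of the 43 genes, with a median of 0.23, against 0.01 over all 14458 genes tested, of which 51.2% were positive. It passed for Asah1 and Psap, both more positive in tumours, where 3.61% of all genes passed in either direction. At an unadjusted p under 0.05 there were 13 positive and 2 negative members (21.0% of all genes in either direction). Asah1 differed by 0.81 (SE 0.15, adjusted p = 0.0106) by edgeR. Beside its rise in tumours, it stood at 76.3 and 74.1 CPM in shHrs cultures and 101 and 120.2 CPM in shCTL cultures in batch 2 and at 101 and 78.5 CPM in shHrs cultures and 94.5 and 94.4 CPM in shCTL cultures in batch 1. This call held in all 25 alternatives, with adjusted p up to 0.042. Psap differed by 0.71 (SE 0.18, adjusted p = 0.0447). In tumours its groups overlapped, in batch 2 it read 752 and 847 CPM in shHrs cultures and 1080 and 1022 CPM in shCTL cultures, and in batch 1 it read 970.5 and 749.5 CPM in shHrs cultures and 1320 and 1161 CPM in shCTL cultures. The log2 fold change was 0.24 in tumours and -0.49 over both culture batches. Its call held in 7 of 25 alternatives. Omitting 1 library at a time, it held only without batch 1 shHrs replicate 1 or shCTL replicate 2 or tumour shHrs replicate 3 and had an adjusted p of 0.0514 to 0.106 by edgeR without any of the other 15. Npc1 (0.68 (SE 0.18, adjusted p = 0.0523)), Ctsb (0.74 (SE 0.23, adjusted p = 0.0771)), Ids (0.71 (SE 0.22, adjusted p = 0.0786)) and Scarb2 (0.65 (SE 0.20, adjusted p = 0.0804)) came next and did not pass. Without batch 1 shHrs replicate 1, 15 members passed, 14 of them more positive in tumours, beside 14.6% of all genes, and without batch 1 shCTL replicate 2, 6 did, beside 8.53%. Hgs itself was lower in tumours than in cultures relative to the controls (-0.81 (SE 0.21, adjusted p = 0.0407); the call ended in 14 of 18 omissions of 1 library, with adjusted p of 0.0532 to 0.109), and its part in these differences was not tested.

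Taken by sign, 9 genes were positive in tumours and negative in both culture batches (Arsa, Arsb, Asah1, Ctsa, Ids, Man2b1, Npc1, Psap and Scarb2). Another 9 were positive in all of these sets (Atp6v0d1, Atp6v1a, Atp6v1h, Cln3, Ctsd, Ctsl, Gla, Lamp1 and Neu1), and 5 were negative in all (Ctsf, Galc, Glb1, Hexa and Naglu). The share of all genes with each of these sign patterns was not computed. The 7 genes with TCACGTGA near a start site had a median log2 fold change of 0.15 in tumours, 0.27 in batch 2 and 0.21 in batch 1. The 31 genes with a window but no TCACGTGA had medians of 0.18, -0.14 and -0.17 in the same order. Of the TCACGTGA holders, Mcoln1, whose stretch is shown above, was the lowest in batch 2 (-1.026), and Gla, with 2 copies, the highest (0.765). In the same order, medians of the 15 genes with CACGTG were 0.14, 0.06 and 0.10, against 0.18, -0.14 and -0.165 for the 23 without. For the 6 genes with TCATGTG they were 0.38, -0.05 and -0.03, against 0.15, -0.11 and -0.06 for the 32 without. Differences between these groups of genes were not tested.

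Levels per length, as CPM per kilobase of exon, differed widely among the members. In shHrs tumours, Gpnmb came first at 986 CPM per kb, followed by Ctsd at 570.5, Psap at 439.5, Ctsz at 423 and Lamp1 at 289. In shCTL tumours these were 637, 473, 371, 414 and 250.2 CPM per kb. At the low end stood Mcoln1 (4.83 CPM per kb in shHrs tumours and 3.66 in shCTL tumours), Cln3 (2.37 and 2.12) and Ctsf (0.445 and 0.658). Together the 43 genes made up 1.58% to 1.84% of all CPM in shHrs tumours, 1.18% to 1.51% in shCTL tumours and 1.20% to 1.97% in cultures. The shares of the tumour groups did not overlap. Without Gpnmb they did, with sums of 9628 to 11860 CPM in shHrs tumours and 8465 to 10140 CPM in shCTL tumours over the other 42 genes.

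**Figure D5:**
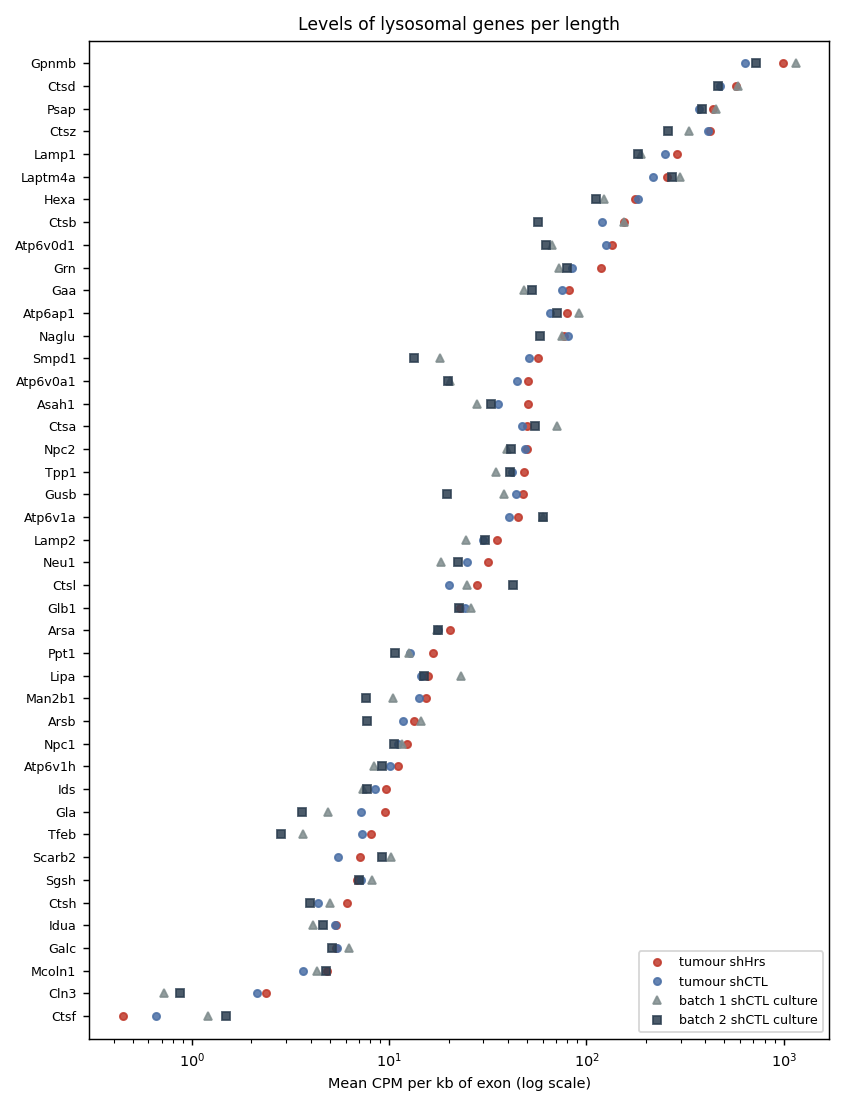
Mean CPM per kilobase of exon of the 43 genes on a log axis, in shHrs tumours (red circles), shCTL tumours (blue circles) and the shCTL cultures of batch 1 (grey triangles) and batch 2 (dark squares). Genes are ordered by their level in shHrs tumours, from Gpnmb at the top to Ctsf at the bottom, and Smpd1, Atp6v0a1, Tfeb and Cln3 lie further right in tumours than in cultures.

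Levels in tumours and in cultures are given side by side without a test. Tumours and cultures also differ in the cells they hold and in how they were grown, and may differ in sequencing run. These cannot be told apart here. Over all libraries, every tumour stood above every culture for 7 genes (Gaa, Man2b1, Smpd1, Cln3, Tfeb, Atp6v0d1 and Atp6v0a1) and below for none. The share of all genes with such an order was not computed, so this count describes the members alone. Smpd1 ran from 139 to 236 CPM in tumours, against 36.8 to 73.9 CPM in cultures, Tfeb from 36.7 to 54.8 against 8.04 to 24.8 CPM, and Atp6v0a1 from 277 to 377 against 74.6 to 216 CPM. Among shCTL libraries alone, tumours were wholly above cultures for 11 genes and wholly below for 3, Scarb2, Laptm4a and Atp6v1a. Here too the share of all genes was not computed. The spread within shCTL tumours was small for most members, with a median coefficient of variation of 9.82% (range 3.63% for Galc to 58.2% for Ctsh), against a median of 12.3% in shHrs tumours (3.01% to 49.1%).

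Genes of the same pathway outside the set were also mostly positive in tumours, where 51.5% of all genes were. These lists were chosen with earlier results of these data known. Of 28 other lysosomal hydrolases, 22 were positive with a median of 0.14, of 27 other membrane proteins 20 were positive (0.16), and of 16 other V-ATPase genes 13 were (0.10). None of these passed by edgeR. At an unadjusted p under 0.05, 5, 9 and 3 of them were higher, where 6.96% of all genes were, and 1 membrane protein was lower. The cystine exporter Ctns (0.47 (SE 0.11, adjusted p = 0.0943)) and the endolysosomal cation channel gene Tpcn1 (0.34 (SE 0.079, adjusted p = 0.0889)) did not pass. Genes that sort enzymes to lysosomes, such as the mannose 6-phosphate receptors, had 12 of 20 positive (median 0.06), and those of the MiT/TFE and mTORC1 axis 14 of 17 (0.13). In the difference between tumours and cultures, 4 other hydrolases and 1 other membrane protein passed, where 3.61% of all genes did in either direction. All of them were more positive in tumours, among them Gm2a (0.98 (SE 0.22, adjusted p = 0.0255)), Hyal1 (1.32 (SE 0.35, adjusted p = 0.048)), Ctso (1.58 (SE 0.42, adjusted p = 0.0495)) and Mcoln3 (1.26 (SE 0.27, adjusted p = 0.0211)). Ctso was low in cultures, at 1.48 and 1.73 CPM with shHrs and 3.01 and 4.17 CPM with shCTL in batch 2. In batch 1 it read 0.86 and 0.98 CPM, against 3.26 and 2.81 CPM. Hyal1 read 25.7 and 12.35 CPM with shHrs in batch 2, against 35.4 and 26.5 CPM. Its batch 1 values were 44.5 and 25.4 CPM, against 85.7 and 80.5 CPM. In tumours the groups overlapped for both genes. Gm2a encodes an activator protein that acts with Hexa, which itself differed by 0.18 (SE 0.24, adjusted p = 0.752).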

How the data were processed

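Total RNA of 10 tumours and 8 cultures was made into libraries with NEBNext Ultra reagents and sequenced paired-end by Illumina HiSeq, per the labels' protocols. The authors deposited raw read counts per gene symbol, whole and not normalized, for 23453 symbols in 18 libraries. Per the submitters' processing notes, STAR 2.4.0h2, DESeq and build mm10 were used. Which counting tool, annotation and strand setting made the table is not given in the sources used here. In GENCODE release M21 (GRCm38), 14 of the 43 genes share exon bases with another protein-coding gene, and for Ctsa, Ctsb, Ctsd, Hexa and Sgsh, 5 genes, this covers 10% or more of their exon bases, so reads of such a pair may not be told apart.

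All further values were computed here with R 4.3.3. Lowly counted genes were removed with the filterByExpr function of edgeR 4.0.16 (minimum count 10), libraries were scaled by TMM, and shHrs was set against shCTL by edgeR's quasi-likelihood test in both directions. P-values were adjusted by Benjamini-Hochberg over all genes tested, with a threshold of 0.05. The tumours had a fit of their own. The cultures were fitted with 1 mean for each batch and treatment, for each batch's effect and the difference between batches, and again with batch as a term. Tumours and cultures were compared in a fit of 18 libraries. A standard error was taken as the log2 fold change divided by the root of F. CPM use TMM sizes over 18 libraries, and CPM per kb divide by the union of exons. Alternatives were RLE, upper-quartile and no scaling, DESeq2 1.42.0, limma 3.58.1 (voom), no filter, a replicate block, fits of other sets of libraries and omission of each library. The procedures were tested on simulated counts. Depth of 17.6 M to 27.7 M counts and the number of replicates limit the precision. Replicates differed by more than sampling noise (chi-square per degree of freedom of 14.5 to 220), and each was kept.

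The members, gene lists and tests were chosen with earlier results of these data known. The rule named Hgs, Tfeb, members past the threshold or else the 6 with the smallest p, the member with the most reads in each role, and up to 4 genes past the threshold in each other list. Other genes, the promoters shown and the omission of both tumours at the ends of the macrophage sums were picked after their values were seen. The rule for promoters would have shown Asah1, for which the table used has no window. Some genes of the other lists are not reported here.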

Additional observations from a re-analysis of the deposited data

Results flagged for a closer look

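In 7 genes, 1 tumour stood apart from the other 4 of its group by Dixon's criterion at the 95% level. Chance alone meets this criterion in about 1 of 20 groups, and 88 groups of 5 tumours were examined. Among shHrs tumours, Ctsh was high in replicate 4, at 51.2 CPM beside 18.6 to 24.8 CPM in the other 4, and Atp6v1h was high in replicate 3, at 124 CPM beside 101 to 106 CPM. Among shCTL tumours, replicate 1 was high for Galc (86.3 CPM, beside 78.6 to 80.6 CPM), Naglu (277 CPM, beside 189.5 to 204 CPM) and Atp6v0a1 (336 CPM, beside 277 to 286 CPM). Ctsf was high in shCTL replicate 5 (5.59 CPM, beside 2.42 to 3.02 CPM), and Laptm4a was low in shCTL replicate 3 (326 CPM, beside 388 to 413 CPM). The sum of macrophage markers was highest in shHrs replicate 4 (1527 CPM) and lowest in shCTL replicate 3 (53.4 CPM), and its part in these values was not tested.

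The effect of shHrs differed between tumours and cultures for Asah1, by 0.81 on the log2 scale (edgeR, adjusted p = 0.0106), and for Psap, by 0.71 (adjusted p = 0.0447). Asah1 was above every shCTL tumour in 5 of 5 shHrs tumours, as were 2.00% of all genes. It was below both shCTL cultures in 2 of 2 shHrs cultures of batch 2. There 4470 of all 12897 genes were wholly below the controls and 4515 wholly above. In batch 1 Asah1 overlapped, at 101 and 78.5 CPM in shHrs cultures and 94.5 and 94.4 CPM in shCTL cultures. Psap was below both shCTL cultures in 2 of 2 shHrs cultures of each batch. Of all genes, 10.3% stood wholly apart in the same direction in both batches.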

How the results depend on the processing

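In tumours, Asah1 was the 1 gene called, and the number called higher was 9 with DESeq2, 2 without scaling (Asah1 and Neu1), 0 in the fit of all 18 libraries (Asah1 no longer passed) and 2 without both tumours at the ends of the macrophage sums (Asah1 and Gpnmb). It was 0 to 2 when 1 tumour was omitted. The cause was not tested. Of the small tumour values, Idua was -0.004 with limma voom, and without both end tumours Ctsa was -0.018, Ctsh -0.076, Ctsz -0.097, Galc 0.005, Idua -0.122, Npc2 -0.028 and Cln3 -0.026. Omitting 1 tumour gave ranges that crossed or reached 0 for Ctsa (0 to 0.17), Ctsz (-0.064 to 0.096), Hexa (-0.141 to 0.048), Galc (-0.092 to 0.013), Idua (-0.084 to 0.082), Naglu (-0.107 to 0.043), Npc2 (-0.002 to 0.079) and Cln3 (-0.023 to 0.266), and omitting 1 culture did so for Tfeb over both batches (-0.41 to 0.052).

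No member was called in cultures by edgeR as first fitted. Over all 17590 genes, the fit with no filter called 976 higher and 1248 lower in batch 2. In the difference between batches it called 624 higher and 687 lower. In batch 2, DESeq2 called 1 lower, the fit with no filter 2 lower, the fit of that batch alone 5 higher and 5 lower, and omission of 1 library 0 to 2 lower. In batch 1, DESeq2 called 1 lower, and omission of 1 library 0 to 2 higher and 0 to 6 lower. Over both batches DESeq2 called 1 higher. For the difference between batches, DESeq2 called 1 higher, the fit with no filter 1 lower, and omission of 1 library 0 to 6 higher and 0 to 1 lower. For the difference between tumours and cultures, 2 were called, against 8 with DESeq2, 1 with no filter, and 1 to 14 higher and 0 to 1 lower on omission of 1 library.

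Over all genes, tumours had 31 higher and 41 lower calls by edgeR, against 273 and 248 by DESeq2. Batch 2 had 206 and 314, against 968 and 1020 by DESeq2 and 2030 and 2273 when fitted alone. The difference between batches had 17 and 3, against 499 and 475 by DESeq2, of 12897 genes tested. That between tumours and cultures had 307 and 215, against 719 and 676 by DESeq2, of 14458 genes tested. With no filter, the difference between tumours and cultures had 267 and 114 of 19271. Without scaling, the median of all genes moved to -0.121 in batch 2 and to 0.112 in the difference between tumours and cultures.

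Whether the replicate numbers pair the samples was not settled. Over genes, deviations from the group mean correlated between same-numbered libraries at 0.023 in batch 2, 0.175 in batch 1 and -0.588 to 0.462 in tumours. In groups of 2 libraries these deviations mirror each other, so each batch gives a single value, which cannot decide the question. With a replicate block, 0 members were called in tumours (Asah1, adjusted p = 0.193 by edgeR), beside 0 and 2 of all genes, and Idua was -0.002. In the difference between tumours and cultures the block called 2, Asah1 (adjusted p = 0.042 by edgeR) and Naglu, while Psap no longer passed. Of all 14458 genes it called 236 higher and 137 lower there.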

Other observations

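Pigment genes, whose products reach melanosomes, gave values of their own beside the lysosomal genes. The sum of 8 melanocyte markers was 20690 to 27480 CPM in shHrs tumours and 20240 to 25090 CPM in shCTL tumours. In batch 2 it was 5218 and 4364 CPM in shHrs cultures, against 14110 and 11910 CPM in shCTL cultures. There 7 of the 8 had negative log2 fold changes, with a median of -1.47, and none passed by edgeR (5 lower at an unadjusted p under 0.05). In batch 1 the sums were 20090 and 8298 CPM in shHrs cultures and 15820 and 9649 CPM in shCTL cultures. Mitf, a relative of Tfeb that governs pigment cells, stood at 831, 976, 792, 631 and 1288 CPM in shHrs tumours and at 1222, 1288, 942, 1160 and 835 CPM in shCTL tumours, so the groups overlapped.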
